A study of Pan troglodytes with 217 samples.

Results

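The 8 genes SUSD2, THY1, CD24, CD9, ENPEP, HAVCR1, ANPEP and MME encode cell surface proteins that can serve to mark or sort naive pluripotent cells and trophectoderm. They were taken by symbol from the 33729 chimpanzee Ensembl gene identifiers of the count table, and all 8 had a match and enough reads to be examined. The levels described here are of transcripts, and no surface protein was measured in these cells. The single cells came from day 4 blastoids, blastocyst-like structures that chimpanzee naive pluripotent stem cells (PSCs) form in culture. Naive PSCs were grown with the inhibitors PD032590, XAV939, Gö6983 and EPZ-6438 together with LIF, Activin-A and IL6, and blastoids were induced with PD032590, A83-01, LPA and Y-27632 before culture without inhibitors. Most of the mural trophectoderm was cut away and dissociated apart from the inner cells and polar trophectoderm, so the share of trophectoderm cells depends on how many cells of each portion were taken. The labels do not tie a cell to a line, a blastoid or a portion of the dissection, and all cells therefore form 1 sample of 1 condition, without replicates and without a test.

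Epiblast gives rise to the embryo proper, hypoblast to the yolk sac, and trophectoderm to the placenta. Cells of these early lineages carry different proteins on their surface, and antibodies to them allow living cells to be separated by flow cytometry. SUSD2, a membrane protein with a sushi domain, is an established surface marker of naive PSCs. THY1 (CD90) and CD24, both tethered to the membrane by a GPI anchor, are commonly read as markers of the later, primed state. ENPEP (aminopeptidase A), ANPEP (aminopeptidase N, CD13) and MME (neprilysin, CD10) are zinc peptidases that trim peptides outside the cell, and ENPEP and HAVCR1 are known as markers of trophectoderm. HAVCR1 (TIM-1) binds phosphatidylserine, and CD9 is a tetraspanin, a protein that organises other membrane proteins.

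Cells entered the analysis if they had at least 4000 reads and reads on at least 8000 genes. This left out 24 cells and kept 88.9%, with 1679888 to 25630392 reads on genes each. They were clustered without the 8 surface genes, so that these did not define the classes against which they were set. Clusters were named from lists of 13 markers for each lineage, which gave 50 epiblast-like and 32 hypoblast-like cells, while the trophectoderm-like cells made up 57.5% of those that entered. The summed level of the epiblast list had a median of 4178 CPM (reads of a gene scaled to the reads of the cell on all genes) in epiblast-like cells, against 1594 CPM among hypoblast-like and 1267 CPM among trophectoderm-like cells. The trophectoderm list had medians of 1907, 2631 and 9776 CPM in the same order. The hypoblast list had medians of 120, 1458 and 240 CPM, and its range of 78 to 6823 CPM in hypoblast-like cells overlapped that of trophectoderm-like cells, which reached 1503 CPM. Trophectoderm-like cells formed a larger cluster of 72 and a smaller cluster of 39 cells. Among the 10 leading genes of the smaller cluster were 2 syncytiotrophoblast markers, CYP19A1 and CGA, and none of the trophectoderm list, so that both clusters are also given apart. Median depth was close between the classes, at 3951119, 3978822 and 3960857 reads, and a cell counts below as positive for a gene at 10 CPM or more. Intervals in parentheses are exact 95% intervals for counting error only, and since reads carry no molecular identifiers they are not independent molecules.

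**Figure D1:**
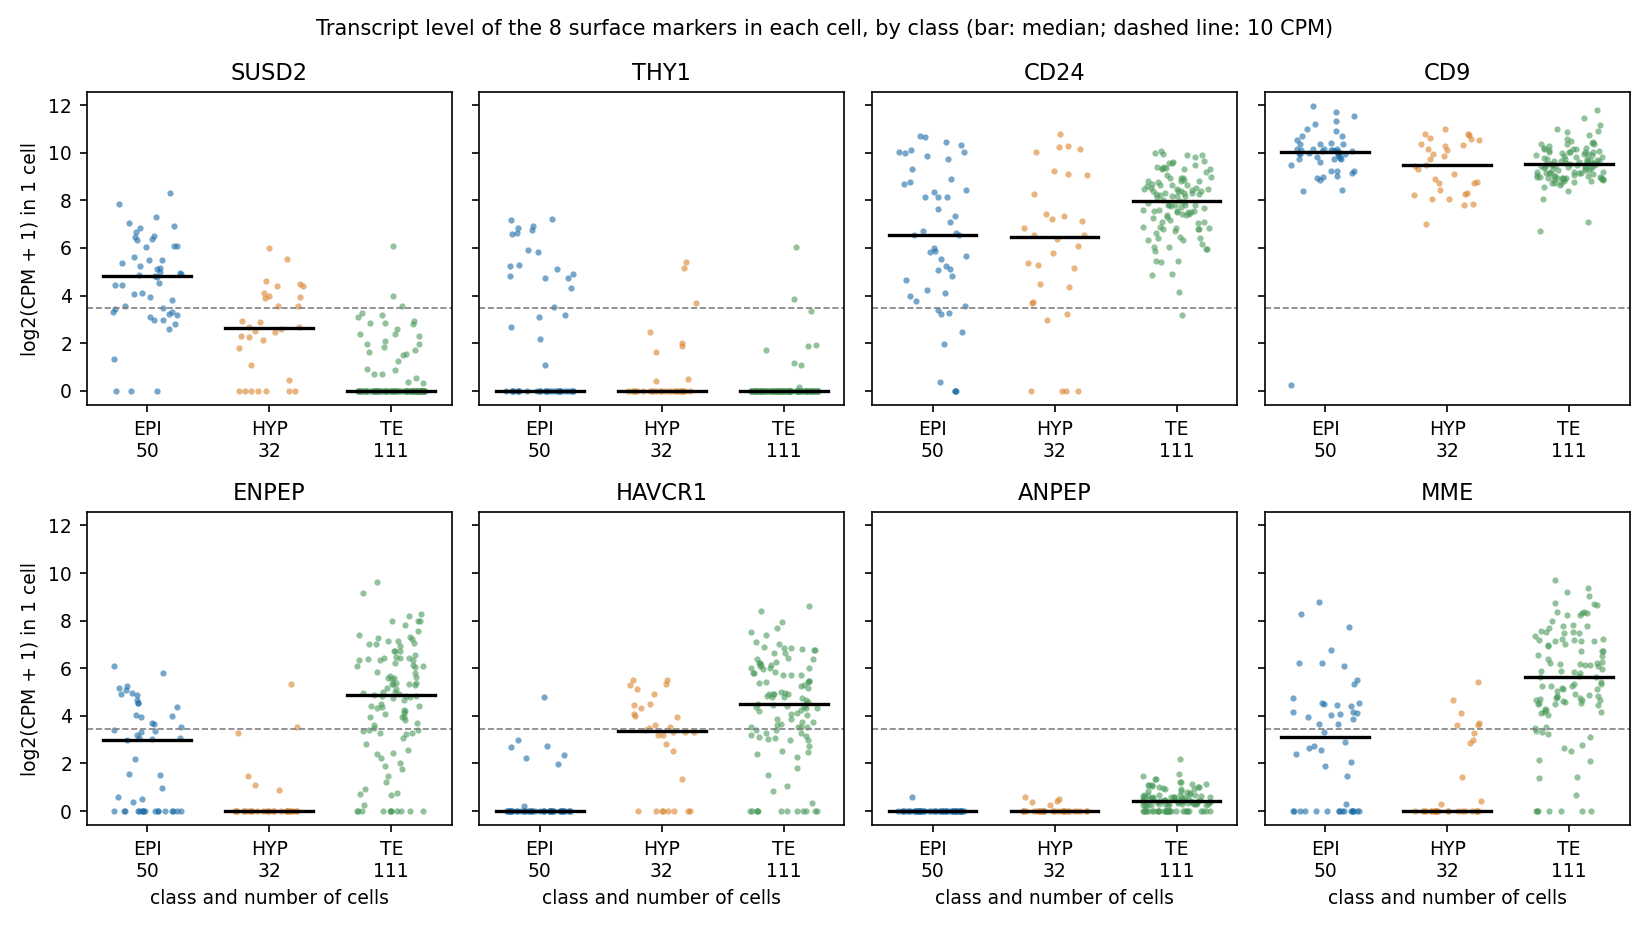
Level of each surface gene in every cell, as log2(CPM + 1) on the vertical axis, for epiblast-like (EPI), hypoblast-like (HYP) and trophectoderm-like (TE) cells. Each point is 1 cell, the bar is the median and the dashed line marks 10 CPM, which 36 of 50 epiblast-like but only 3 trophectoderm-like cells reached for SUSD2.

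SUSD2 was highest in epiblast-like cells, lower in hypoblast-like cells and close to absent from trophectoderm-like cells. Its CPM per cell ran from 0 through a median of 27.5 to 320.3 in epiblast-like cells, from 0 through 5.14 to 63.4 in hypoblast-like cells, and from 0 through 0 to 66.2 in trophectoderm-like cells. The ranges overlapped, but the middle of the distribution, between the lower and upper quartile, was apart in epiblast-like cells (9.14 to 65.9 CPM) and trophectoderm-like cells (0 to 0.381 CPM). Pooled over the cells of a class, the level was 41.6 CPM (40.7 to 42.4), 9.93 CPM (9.39 to 10.5) and 1.61 CPM (1.51 to 1.73). This places SUSD2 at 4.19 times the hypoblast-like and 25.7 times the trophectoderm-like level in epiblast-like cells. SUSD2 was positive in 36 of 50 epiblast-like cells (72%, 57.5 to 83.8), 12 of 32 hypoblast-like cells (37.5%, 21.1 to 56.3) and 3 trophectoderm-like cells (2.7%, 0.561 to 7.70). Thinning to the same number of reads left out 20 shallower cells, and the shares were then 70.8% of 48, 40% of 25 and 3% of 100 cells. At a threshold of 50 CPM, 14 epiblast-like, 1 hypoblast-like and 1 trophectoderm-like cell remained positive.

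How well a gene separates a class was described by the area under the receiver operating characteristic (ROC) curve. This area is the share of pairs of cells, 1 from the class and 1 from all other cells, in which the cell of the class has the higher CPM, with ties counted as 0.5. SUSD2 had an area of 0.910 for epiblast-like cells, and was the only one of the 8 genes to reach 0.9 for any class. Of all 15561 genes with a read in at least 20 cells, 1.72% reached 0.9 for epiblast-like cells, and 220 of them had a higher area than SUSD2. The value lay between 0.905 and 0.923 under every other clustering, filter and scaling tried. Taken against each other class, the area was 0.943 over trophectoderm-like cells and 0.797 over hypoblast-like cells, so that hypoblast-like cells were the nearest class. For trophectoderm-like cells SUSD2 had an area of 0.110 and for hypoblast-like cells 0.619.

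THY1 was also highest in epiblast-like cells, but in a minority of them. Reads were found in 23 of 50 epiblast-like cells, with a median of 0, an upper quartile of 28.6 and a highest value of 147.2 CPM. Of these cells 18 were positive at 10 CPM (36%, 22.9 to 50.8), against 3 of 32 hypoblast-like cells (9.38%, 1.98 to 25) and 2 trophectoderm-like cells (1.80%, 0.219 to 6.36). The pooled level was 28.2 CPM (27.5 to 29) in epiblast-like cells, and the other classes had 2.41 CPM (hypoblast-like) and 0.631 CPM (trophectoderm-like). Single cells carried much of the low values, since 1 cell held 46.5% of the hypoblast-like and 1 cell 65.6% of the trophectoderm-like reads. Without these cells the levels were 1.33 and 0.218 CPM. SUSD2 and THY1 were the 2 of 8 surface genes with a pooled level at least 4-fold higher in epiblast-like cells than in all others, by 12.7 and 28.6 times, and 8.75% of all genes passed the same fold. Despite its larger fold, THY1 had an area of only 0.686, below the 0.910 of SUSD2, because 27 epiblast-like cells had no read.

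CD24 did not mark the epiblast-like class. Pooled levels of 350.9, 351.6 and 318.9 CPM in epiblast-like, hypoblast-like and trophectoderm-like cells were close, and 1 hypoblast-like cell held 36.9% of the reads of that class, without which its level was 239.4 CPM. The spread between cells differed more than the sum. Epiblast-like cells ran from 0 through a median of 91.6 to 1658 CPM, hypoblast-like cells from 0 through 86.2 to 1758 CPM, and trophectoderm-like cells from 8.16 through 250.1 to 1070 CPM. Below 10 CPM were 9 of the 50 cells of the epiblast-like class, 6 of the 32 of the hypoblast-like class, and only 1 trophectoderm-like cell. The area for trophectoderm-like cells was 0.656, and 11.5% of all genes had a higher one. An unnamed gene, ENSPTRG00000049850, followed CD24 from cell to cell (Spearman rho 0.868 over all cells that entered) at 0.319% to 0.366% of its reads in the 3 classes. Whether both share reads of near-identical sequence was not tested, and the value of CD24 is uncertain to that extent.

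CD9 was found in nearly all cells. It was positive in every cell but 1, which was epiblast-like and had 0.175 CPM. Epiblast-like cells had a median of 1032 CPM, hypoblast-like cells 712.2 CPM and trophectoderm-like cells 725.3 CPM, with highest values of 3960, 2068 and 3593 CPM. The quartiles of all 3 classes overlapped, and the pooled levels of 1176, 840.2 and 819.5 CPM differed by at most 1.44 times. Areas of 0.671, 0.443 and 0.398 for epiblast-like, hypoblast-like and trophectoderm-like cells placed CD9 within the bulk of all genes, since 20.0% of them had a higher area for epiblast-like cells.

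**Figure D2:**
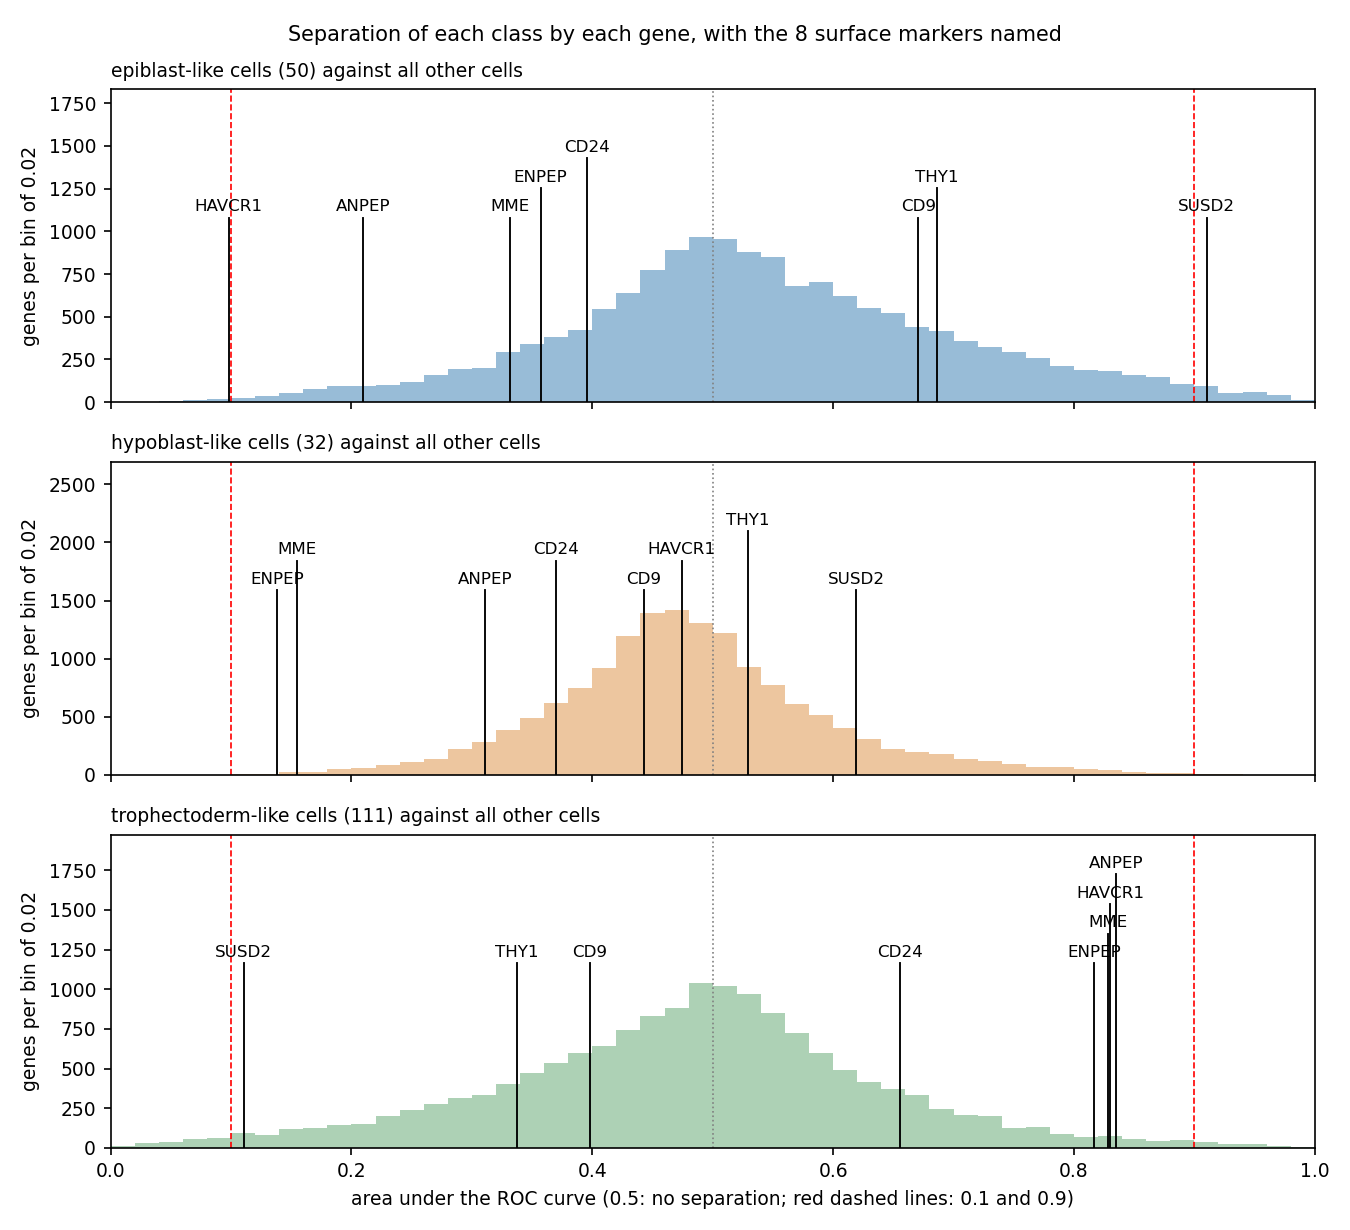
Area under the ROC curve of each of 15561 genes (horizontal axis, without a unit) for each class against all other cells, as the number of genes per bin of 0.02, with the 8 surface genes as labelled lines. SUSD2 lies beyond 0.9 for epiblast-like cells, HAVCR1 below 0.1, and ENPEP, MME, HAVCR1 and ANPEP stand between 0.817 and 0.835 for trophectoderm-like cells.

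Levels of ENPEP, HAVCR1, ANPEP and MME were highest in trophectoderm-like cells. All 4 had a pooled level there at least 4-fold above that of the other cells, as did 4.68% of all genes, by 6.87, 7.35, 16.3 and 5.41 times in this order. None reached an area of 0.9, as 0.611% of all genes did. Their areas for trophectoderm-like cells were 0.817, 0.830, 0.835 and 0.828, and between 1.64% and 2.07% of all genes had a higher area than each of them. They differed in which other class still expressed them.

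ENPEP ran from 0 through a median of 28.2 to 781.0 CPM in trophectoderm-like cells, from 0 through 7.03 to 67.8 CPM in epiblast-like cells, and from 0 through 0 to 39.4 CPM in hypoblast-like cells. It was positive in 78 trophectoderm-like cells (70.3%, 60.9 to 78.6), 18 of 50 epiblast-like cells (36%, 22.9 to 50.8) and 2 of 32 hypoblast-like cells (6.25%, 0.766 to 20.8). Pooled levels were 56.4, 11.8 and 2.17 CPM, of which the last fell to 0.830 CPM without 1 hypoblast-like cell that held 63.1% of the reads. The separation was therefore wider from hypoblast-like cells (area 0.910) than from epiblast-like cells (area 0.757).

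HAVCR1 showed the opposite order of the other classes. Trophectoderm-like cells ran from 0 through a median of 21.8 to 388.8 CPM, hypoblast-like cells from 0 through 9.41 to 44.4 CPM, and epiblast-like cells from 0 through 0 to 26.4 CPM. The gene was positive in 78 trophectoderm-like cells (70.3%, 60.9 to 78.6), 15 of 32 hypoblast-like cells (46.9%, 29.1 to 65.3) and 1 of 50 epiblast-like cells (2%, 0.0506 to 10.6). Pooled levels were 39.5, 12.9 and 0.869 CPM, and without the highest epiblast-like cell, which held 37.4% of the reads, the last was 0.551 CPM. The area of trophectoderm-like over epiblast-like cells was 0.921 and over hypoblast-like cells 0.689. For epiblast-like cells against all others the area was 0.098, at most 0.1 as for 0.276% of all genes. With no cell filter or with other settings it ranged from 0.0893 to 0.150, so that the count of 1 gene at this end depends on the setting.

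MME ran from 0 through a median of 48.3 to 845.4 CPM in trophectoderm-like cells, from 0 through 7.76 to 435.9 CPM in epiblast-like cells, and from 0 through 0 to 41.9 CPM in hypoblast-like cells. It was positive in 92 trophectoderm-like (82.9%, 74.6 to 89.4), 24 of 50 epiblast-like (48%, 33.7 to 62.6) and 6 of 32 hypoblast-like cells (18.8%, 7.21 to 36.4). Its pooled level of 119.5 CPM in trophectoderm-like cells compares with 33.3 CPM for the epiblast-like and 3.30 CPM for the hypoblast-like class. As for ENPEP, hypoblast-like cells were the more distant class, with an area of 0.911 against 0.775 for epiblast-like cells.

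ANPEP was close to the limit of detection. The cells that entered held 230 reads together on its 2 identifiers, and none was positive, where a limit of 3 counts over this number of cells corresponds to a share of 1.55% and the exact 95% interval reaches 1.89%. The highest cell had 3.55 CPM. Reads were nevertheless unevenly spread, with at least 1 read in 81 trophectoderm-like cells (73%, 63.7 to 81), 5 of 32 hypoblast-like cells (15.6%, 5.28 to 32.8) and 1 of 50 epiblast-like cells (2%, 0.0506 to 10.6). The pooled levels were 0.428 CPM (0.373 to 0.488), 0.0545 CPM (0.0219 to 0.112) and 0.0093 CPM (0.00113 to 0.0336). Of the cells deep enough to be thinned to 1 depth, 59 of 100, 4 of 25 and 1 of 48 kept a read (59%, 16% and 2.08%). The area of 0.835 for trophectoderm-like cells was then 0.767.

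No surface gene of the 8 marked hypoblast-like cells. None reached an area of 0.9 for this class, against 0.141% of all genes, and none had a 4-fold higher pooled level than all other cells, against 1.86%. The highest area was the 0.619 of SUSD2. At the other end, 0 of 8 had an area of at most 0.1 for hypoblast-like or for trophectoderm-like cells, against 0.0514% and 1.25% of all genes. For trophectoderm-like cells this count depends on the setting, since the 0.110 of SUSD2 ranged from 0.097 to 0.168 and was below 0.1 under a stricter limit on genes per cell. In hypoblast-like cells ENPEP, ANPEP and MME, 3 of 8, were lower by at least 4-fold, against 8.35% of all genes. In epiblast-like cells HAVCR1 and ANPEP were lower by 4-fold, with ANPEP counted at 3 reads in place of its 2, against 5.51% of all genes. In trophectoderm-like cells SUSD2 and THY1 were lower, against 10.1%.

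By area, HAVCR1 was the surface gene that differed most between the 2 trophectoderm-like clusters. Its pooled level was 55.3 CPM in the larger and 14.3 CPM in the smaller cluster, with 59 of 72 cells (81.9%, 71.1 to 90) and 19 of 39 cells (48.7%, 32.4 to 65.2) positive and an area of 0.803. In the smaller cluster HAVCR1 lay near the hypoblast-like level, with an area of 0.491 over hypoblast-like cells. ENPEP was likewise higher in the larger cluster, at 71.3 against 32.7 CPM, with an area of 0.656 and 54 of 72 against 24 of 39 cells positive. MME had the opposite direction, at 91.8 CPM in the larger and 163.8 CPM in the smaller cluster, of which 53 of 72 and 39 of 39 cells were positive. Without the highest cell the smaller cluster stood at 123.9 CPM. The levels of CD24 were 298.1 and 352.1 CPM and of CD9 840.2 and 786.6 CPM. None of the 8 genes reached an area of 0.9 or fell to 0.1 between the clusters, against 0.263% and 0.514% of all genes. THY1 alone passed a 4-fold difference, higher in the larger cluster as for 4.22% of all genes, while 0 of 8 were 4-fold lower there, against 4.38% of all genes. For THY1, 71.8% of the reads in the larger cluster came from 1 cell, without which the level fell from 0.939 to 0.267 CPM. This division of the trophectoderm-like cells is unstable, since 9 of 20 other random seeds gave clusters of 60 and 51 cells. In that division HAVCR1 stood at 58.7 against 19.2 CPM with an area of 0.802, ENPEP at 71.4 against 40.5 CPM, MME at 88 against 152.98 CPM and CD24 at 259.8 against 381.5 CPM. The summed syncytiotrophoblast markers, with a median of 427.4 CPM in the smaller and 0.904 CPM in the larger cluster of the division into 72 and 39, moved with these differences, and their part in them was not tested.

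**Figure D3:**
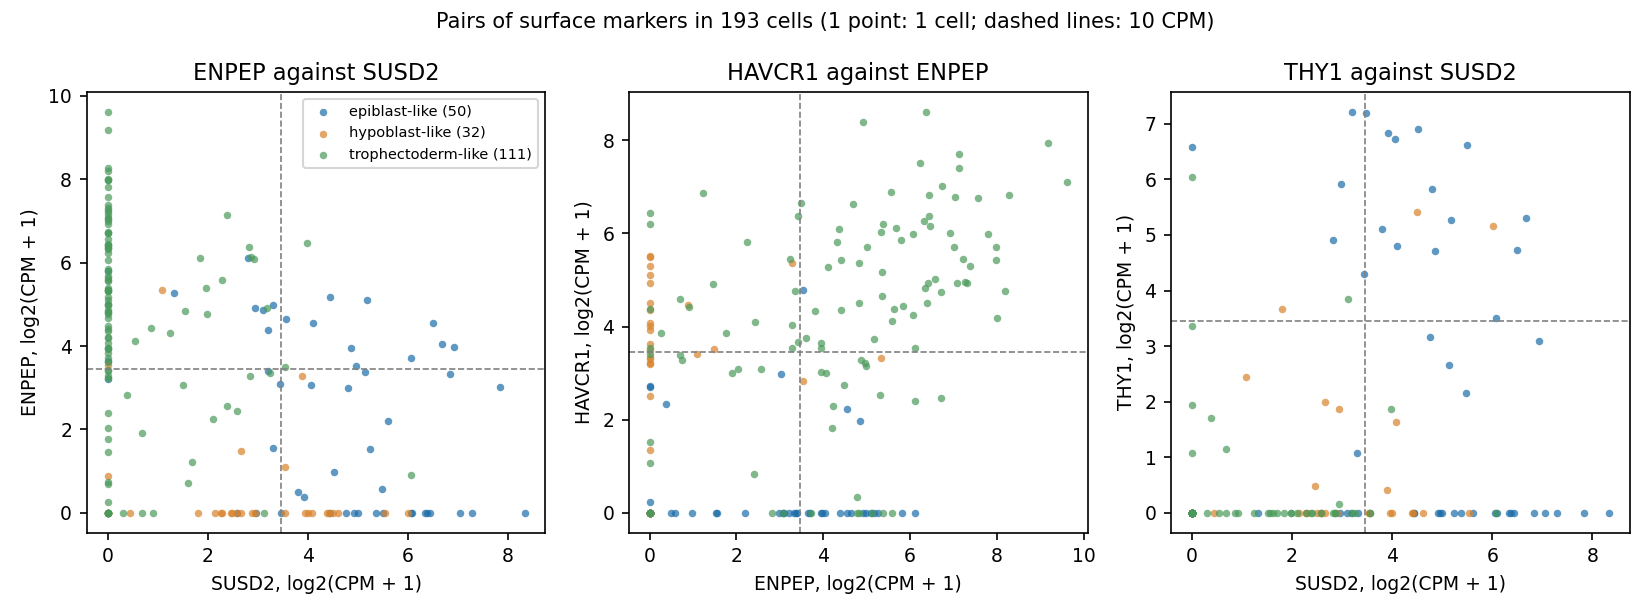
Levels of 3 pairs of surface genes in the cells that entered, each axis as log2(CPM + 1), with 1 point per cell coloured by class and dashed lines at 10 CPM. Of the 61 cells positive for both ENPEP and HAVCR1 60 were trophectoderm-like, and THY1 was positive in 13 of 36 SUSD2-positive and 5 of 14 SUSD2-negative epiblast-like cells.

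To describe what a sort on these transcripts would collect, the make-up of each positive set was counted. SUSD2-positive cells numbered 51, of which 36 were epiblast-like (70.6%, 56.2 to 82.5), 12 hypoblast-like and 3 trophectoderm-like. Leaving out ENPEP-positive cells left 39 cells with 26 epiblast-like (66.7%, 49.8 to 80.9) and recovered 52% rather than 72% of the class, because 10 of the 12 cells removed were epiblast-like. All 12 SUSD2-positive hypoblast-like cells remained, as none was ENPEP-positive. Leaving out THY1-positive cells in place of ENPEP-positive ones left 36 cells, 23 of them epiblast-like (63.9%, 46.2 to 79.2). The 23 THY1-positive cells held 18 epiblast-like cells (78.3%, 56.3 to 92.5). Without CD24-positive cells, the SUSD2-positive set shrank to 8 cells, of which 6 were epiblast-like (75%, 34.9 to 96.8). Another 2 sets were added after values had been seen. SUSD2-positive, HAVCR1-negative cells numbered 41, with 35 epiblast-like (85.4%, 70.8 to 94.4), 6 hypoblast-like and 0 trophectoderm-like, and recovered 70% of the epiblast-like class. Cells positive for SUSD2 and THY1 numbered 15, with 13 epiblast-like (86.7%, 59.5 to 98.3), and recovered 26%. At 1 read or 1 CPM in place of 10 CPM the purity was 78% and 80% for the set without HAVCR1, and 61.1% and 71% for the set with THY1. At 50 CPM the first set was 87.5% epiblast-like with a recovery of 28%, and the second was empty.

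For trophectoderm-like cells, single genes and pairs were counted in the same way. ENPEP-positive cells numbered 98 with 78 trophectoderm-like (79.6%, 70.3 to 87.1), and HAVCR1-positive cells 94 with 78 trophectoderm-like (83%, 73.8 to 89.9). MME-positive cells were more numerous, and the 92 trophectoderm-like ones among them were 75.4% of the set (66.8 to 82.8). Positive for both ENPEP and HAVCR1 were 61 cells, of which 60 were trophectoderm-like (98.4%, 91.2 to 99.96), 1 was epiblast-like and 0 of 32 hypoblast-like. This set held 54.1% of the trophectoderm-like cells (44.3 to 63.6), namely 46 of 72 in the larger and 14 of 39 in the smaller cluster. Cells positive for CD9 and negative for SUSD2 were 76.1% trophectoderm-like (68.2 to 82.8), against 57.5% of all cells that entered. Among them were 14 epiblast-like and 20 hypoblast-like cells, and this set recovered 97.3% of the trophectoderm-like class (92.3 to 99.4). Every SUSD2-negative cell was CD9-positive, so the CD9 condition removed no cell and the set rests on SUSD2 alone. Cells positive for MME and negative for ENPEP were a mixture of 24 trophectoderm-like, 16 epiblast-like and 6 hypoblast-like cells. CD24-positive and CD9-positive sets took in nearly the whole population, with 82% and 98% of epiblast-like, 81.25% and 100% of hypoblast-like and 99.1% and 100% of trophectoderm-like cells, and the ANPEP sets were empty. Purity depends on the share of each class among the cells taken, here set in part by the dissection, and recovery of the trophectoderm-like class on the mix of its clusters.

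**Figure D4:**
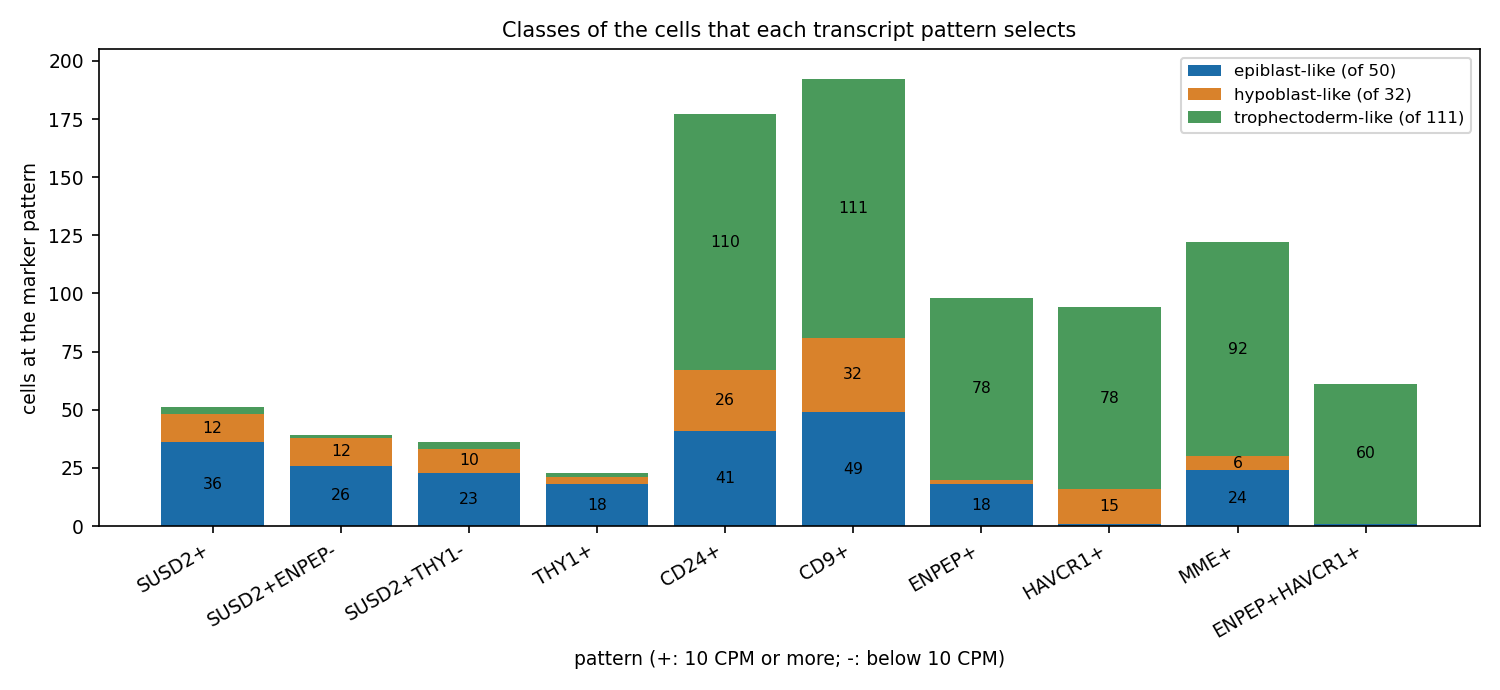
Number of cells (vertical axis) in sets defined by 10 CPM or more (+) or less (-) of the named transcripts, coloured by class. The set positive for ENPEP and HAVCR1 holds 60 trophectoderm-like and 1 other cell, while the SUSD2-positive set holds 36 epiblast-like, 12 hypoblast-like and 3 trophectoderm-like cells.

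Within the 50 epiblast-like cells, THY1 was positive in 13 of 36 SUSD2-positive cells (36.1%, 20.8 to 53.8) and in 5 of 14 SUSD2-negative cells (35.7%, 12.8 to 64.9). The level of SUSD2 was lower with THY1, at a median of 15.9 and a highest value of 100.9 CPM in THY1-positive cells against 32.6 and 320.3 CPM in THY1-negative cells, with wide overlap and a rank correlation of -0.19. By SUSD2, the median of CD24 was 60.2 CPM (quartiles 17 and 328.9) in positive and 221.95 CPM (26.3 and 1057) in negative cells (rho -0.24), so that the quartiles overlapped, and CD24 was positive in 83.3% and 78.6% of them. By THY1, its CPM ran from 8.28 through a median of 391 to 1658 in the 18 THY1-positive cells and from 0 through 47.5 to 1383 in the 32 THY1-negative cells, and the rank correlation of both genes was 0.50 over the 50 cells. CD24 also followed the number of genes detected in a cell (rho 0.48), whose part in this relation was not tested. The list of 8 primed or formative epiblast markers had a median of 63.5 CPM in THY1-positive and 22.5 CPM in THY1-negative cells, with ranges of 6.05 to 165.4 and 0 to 197.7 CPM. The list was not particular to the class, since hypoblast-like cells had a median of 79.9 CPM against 40.3 CPM in epiblast-like cells, with OTX2 at 102.8 and 5.29 CPM. For the epiblast list the medians were 4726 and 3959 CPM. ENPEP was positive in 10 of 36 SUSD2-positive cells (27.8%, 14.2 to 45.2) and 8 of 14 SUSD2-negative cells (57.1%, 28.9 to 82.3), with a rank correlation of -0.39. Beside this, the trophectoderm list had a median of 1545 CPM in SUSD2-positive and 2623 CPM in SUSD2-negative epiblast-like cells, and the epiblast list 4257 and 3423 CPM. The part of these levels in the difference was not tested. These divisions of the class were chosen after values had been seen. The cells differ in depth and may share a blastoid, so the correlations are descriptions.

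Within the trophectoderm-like class, ENPEP and HAVCR1 went together. Both were positive in 60 cells, ENPEP alone in 18, HAVCR1 alone in 18 and neither in 15, and the rank correlation was 0.48. Both genes were higher in the larger cluster, and within the larger and the smaller cluster the correlation was 0.37 and 0.45. For MME the correlation with ENPEP was 0.22 over the class, 0.38 in the larger and 0.09 in the smaller cluster, and with HAVCR1 it was -0.09 over the class. In the 33 ENPEP-negative cells HAVCR1 had a median of 10.6 CPM, against 29.8 CPM in the 78 ENPEP-positive cells. The summed trophectoderm list had medians of 9948 CPM in ENPEP-negative and 9567 CPM in ENPEP-positive cells, while the syncytiotrophoblast list had medians of 28.8 CPM in ENPEP-negative and 5.48 CPM in ENPEP-positive cells. The epiblast list was higher without ENPEP, with a median of 1569 CPM (quartiles 1358 and 1964) in ENPEP-negative against 1125 CPM (886 and 1376) in ENPEP-positive cells, and its part in the difference was not tested.

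The genes most alike to each surface gene over all cells that entered were named by the rank correlation of CPM. Since all cells enter, this largely orders genes by class. For SUSD2 they were ART5 (0.750), PLA2G10 (0.748), CXCL12 (0.726), B3GNT7 (0.721) and CRIPTO (0.720), of which CRIPTO, a co-receptor for NODAL, had pooled levels of 1278, 125.5 and 24.7 CPM in epiblast-like, hypoblast-like and trophectoderm-like cells. For THY1 the leading genes were SFRP2 (0.566), a secreted antagonist of WNT, and FGF4 (0.542), an epiblast growth factor. OLR1 (0.636), OLFML1 (0.631) and CCDC88C (0.623) led for ENPEP, and SLC7A7 (0.696), CD99 (0.688) and LAMP2 (0.685) for HAVCR1. The gene nearest to ANPEP was ATP8B1 (0.639) and to MME CCKBR (0.665), the gastrin receptor, with an area of 0.985 for trophectoderm-like cells. CD9 had SARAF (0.557) as its nearest gene. After the unnamed identifier, CD24 was followed at a distance by ALDH7A1 (0.478).

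A list of 34 other surface proteins, of which 30 had enough reads, was set beside the 8 genes. Unlike the 8 genes these took part in the clustering, and PDGFRA was among the 10 leading genes of the hypoblast-like cluster, so their areas describe the clusters they helped to form. None of them reached an area of 0.9 for epiblast-like or trophectoderm-like cells, so that none separated epiblast-like cells as far as SUSD2. CD47, a surface ligand that inhibits phagocytosis, was singled out after its values were seen. For trophectoderm-like cells CD47 had an area of 0.881, above the 0.817 to 0.835 of ENPEP, HAVCR1, ANPEP and MME. PDGFRA, a growth factor receptor of primitive endoderm, had an area of 0.997 for hypoblast-like cells and was positive in 32 of 32 of them (14.6 to 1857 CPM), against 2 of 50 epiblast-like and 11 trophectoderm-like cells. IL6ST, the shared receptor subunit for IL6 and LIF, had an area of 0.923 for the same class, with a pooled level of 371.4 CPM there, 120.7 CPM among epiblast-like and 37.1 CPM among trophectoderm-like cells. EPCAM, an adhesion molecule of epithelia, separated the larger from the smaller trophectoderm-like cluster with an area of 0.940, at 1115 against 334.4 CPM. Of all genes 0.263% reached 0.9 between these clusters. In the other division of these cells, into 60 and 51, EPCAM was not examined. The list had median areas of 0.615, 0.578 and 0.362 for epiblast-like, hypoblast-like and trophectoderm-like cells, where all genes had 0.528, 0.474 and 0.488. Of 13 other membrane peptidases 10 had enough reads, and none reached 0.9 for any class. Their median area for trophectoderm-like cells was 0.490, beside the 0.817, 0.835 and 0.828 of ENPEP, ANPEP and MME.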

How the data were processed

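Libraries of single cells were made by SMART-seq2, which copies full-length cDNA and uses no molecular identifiers. The authors deposited raw read counts per gene, not normalized. The methods of the study name FastP, STAR and the chimpanzee genome Pan_tro_3.0, whereas the submitters' processing notes name Trim Galore 0.6.6, STAR 2.7.7a and GRCh38. The identifiers in the table are those of chimpanzee genes. Symbols were attached to 18783 of 33729 identifiers from a table of names, and identifiers of the same symbol were summed. Gene coordinates and transcript lengths of this build were not used, so levels are not compared between genes.

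Cells with at least 4000 reads and 8000 genes with a read were kept, which left out 24 cells and kept 88.9%, more than the study states to have analysed. Total counts over all cells ranged from 5792 to 25630392 with a median of 3748586 reads. Scanpy 1.11.5 normalized totals, took log1p values and computed 50 components and 30 neighbours from 15795 identifiers with a read in at least 20 cells, without the 8 surface genes. Leiden clusters (leidenalg 0.10.2, resolution 1, seed 0) took the name of the marker list with the highest mean standardized level, where 3 or more of its markers reached 1 CPM. Doublets were neither called nor removed. CPM scale the reads of a gene to all reads on genes, and pooled levels sum reads over the cells of a class. Folds put counts under 3 at 3. Thinning drew 2532312 reads per cell, the 10th percentile, and left out 20 shallower cells. Shares have exact Clopper-Pearson and pooled CPM exact Poisson 95% intervals, and the script for areas and folds was tested on simulated data. Since cells are not replicates, no p-value was computed.

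The 8 genes and all gene lists were chosen with earlier results of these data known. Named beside them are the 5 genes with the highest rank correlation to each, of which the leading ones are printed, and genes of the lists of surface proteins and peptidases that reached an area of 0.9. CD47 is named outside this rule and was singled out after its values were seen. Alternatives covered the genes and cells that entered, resolution, neighbours, UMAP coordinates, thinning, size factors and the thresholds. Random seeds, normalization after the gene filter and a single ANPEP identifier were added after seeing the data. The scripts used matplotlib 3.10.9, scipy 1.17.1, pandas 2.3.3 and numpy 2.4.6 under Python 3.11.15.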

Additional observations from a re-analysis of the deposited data

Results flagged for a closer look

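The 24 cells left out, all by the limit on genes, entered the comparisons above only under the setting without a cell filter. Reads of all 8 surface genes were found in them, above the 0.0685 CPM that a count of 0 over these cells allows. Pooled levels were 5.64 CPM for SUSD2, 36.2 CPM for ENPEP, 46.8 CPM for HAVCR1, 0.411 CPM for ANPEP, 137.6 CPM for CD24, 2.58 CPM for THY1, 797.4 CPM for CD9 and 51.9 CPM for MME. At 10 CPM 4 of 24 cells were positive for SUSD2 (16.7%, 4.74 to 37.4), 5 for ENPEP, 4 for HAVCR1, 13 for CD24, 4 for THY1, 20 for CD9 and 9 for MME. CD9, positive in all but 1 of the cells that entered, was thus below 10 CPM in 4 of the 24 cells.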

How the results depend on the processing

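Every cell shared with the clustering reported kept its class under the alternatives to the clustering tried, except at a resolution of 1.5 and on UMAP coordinates, where 99% did. Areas at or beyond 0.9 or 0.1 were those of SUSD2 and HAVCR1 for epiblast-like cells. They ranged from 0.905 to 0.923 and from 0.0893 to 0.150, so neither crossed 0.5. The threshold for a positive cell changed the sets most. From 1 read on, SUSD2-positive cells were 46.1% epiblast-like and recovered 94% of the class, and with ENPEP-negative cells only 40.5% and 34%. ENPEP alone then recovered 90.1% of trophectoderm-like cells, and ENPEP with HAVCR1 gave 89.3% purity and 82.9% recovery. From 1 CPM the values were 50% and 94% for SUSD2, 47.7% purity for SUSD2 without ENPEP, 85.6% recovery for ENPEP, and 90.4% and 76.6% for ENPEP with HAVCR1. From 50 CPM they were 87.5% and 28% for SUSD2 with and without the ENPEP condition, 95.1% and 35.1% for ENPEP, and 100% and 18.9% for ENPEP with HAVCR1. With size factors the purity of the last set was 100%. An area of 0.8 in place of 0.9 was reached by 5 of 8 surface genes instead of 1, namely 1 for epiblast-like and 4 for trophectoderm-like cells, as by 6.76% and 2.47% of all genes. Genes 4-fold higher in hypoblast-like cells were 2.91% with no cell filter, against 1.86%. Among genes with a mean of at least 10 CPM 558 were 4-fold higher in 1 of the classes, against 2381 of all genes, and the shares for epiblast-like, hypoblast-like and trophectoderm-like cells were 3.21%, 0.945% and 2.98%, against 8.75%, 1.86% and 4.68%. No paired analysis was possible because all cells belong to 1 group. ANPEP lay near the limit of detection at this depth, and with 1 sample the spread between blastoids or lines is unknown.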

Other observations

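The 3 trophectoderm-like cells that were positive for SUSD2 had 10.7, 14.8 and 66.2 CPM of it. They were also positive for HAVCR1, at 99.1, 70.2 and 20.4 CPM, and their summed trophectoderm markers ran from 4847 to 9927 CPM. The only epiblast-like cell positive for HAVCR1 had 26.4 CPM of it beside 30.2 CPM of SUSD2 and 10.6 CPM of ENPEP. Whether any of these wells held more than 1 cell was not tested. The epiblast-like cell with 0.175 CPM of CD9 had 20.7 CPM of SUSD2 and no read on CD24, THY1, ENPEP or MME.

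CD47, singled out after its values were seen, was low in hypoblast-like cells, with an area of 0.0717. Pooled levels were 12.7 CPM there, 66.6 CPM for the epiblast-like and 245.5 CPM for the trophectoderm-like class.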
